A study of Mus musculus with 6 samples.

Results

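Apolipoproteins are the proteins that wrap plasma lipids into lipoprotein particles, and Mttp encodes the transfer protein that loads lipid onto apolipoprotein B in the endoplasmic reticulum. The genes described here are Apoa1, Apoa2, Apoa4, Apoa5, Apob, Apoc1, Apoc3, Apoe, Apom and Mttp, found in the deposited counts by matching Ensembl identifiers to these symbols. All 10 had exactly 1 row among the 55401 genes of the table, and all 10 passed the filter on low counts. The study measured poly(A) RNA in fresh liver of C57BL/6 mice, with 1 sequencing library per sample. OP, the treatment of the mice behind 3 of the samples, is read from the title of the series as okra polysaccharide. HFCF stands for a feed rich in fat, cholesterol and fructose, given to the mice behind the other 3. For OP mice the labels name no feed, dose or duration, no label gives an age, and no mice on ordinary chow were analysed here. Whether the samples of a group are different mice is not stated, and p-values therefore reflect sample-to-sample spread that may be technical in part.

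Liver secretes very low density lipoprotein (VLDL), a particle built on 1 molecule of apolipoprotein B, and much of the nascent high density lipoprotein (HDL), built on apolipoproteins A-I and A-II. Exchangeable apolipoproteins such as E and the C group then move between particles and set how fast lipases and receptors act on them. In a fatty liver, loading of lipid onto apolipoprotein B and its secretion is a main route by which triglyceride leaves the hepatocyte.

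Totals ranged from 50635853 to 61918541 counts in the OP libraries and from 46459980 to 58822973 in the HFCF libraries. A count of 3, the limit that 0 counts allow, stood for 0.0485 to 0.0646 CPM (counts scaled to a common library size), which covers counting error only. This limit takes each count as a separate read pair. Several counts may come from 1 read pair here, and the limit would then be higher. The hepatocyte genes Alb, which encodes albumin, and Ttr, the thyroid hormone carrier, were among the abundant transcripts of every library, which fits the label of liver tissue, and none of 8 hepatocyte markers was at 0. The share of counts in mitochondrially encoded mRNAs was lower in OP on average (9.31% against 18.3% in HFCF), though the groups overlapped at replicate 3. It was 7.48%, 6.08% and 14.4% in OP replicates 1 to 3 and 22.0%, 18.8% and 14.1% in HFCF replicates 1 to 3. Replicates 1 and 2 of each group were more alike than either was to replicate 3 (chi-square per degree of freedom 148 against 337 and 350 in OP, and 46.2 against 269 and 167 in HFCF). In bulk tissue a change in the number of cells of a type and a change in RNA per cell cannot be told apart.

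Transcripts of the exchangeable apolipoproteins E and C-III were higher in OP livers, those of A-II and C-I lay higher without passing the test, and those of A-V differed least. Apoe rose 1.85-fold and Apoc3 1.63-fold. No gene of the 10 was called lower. Apob, Mttp and Apoa1 lay above HFCF by 0.31 to 0.40 on the log2 scale, Apoa4 and Apom lay below it with wide spreads, and none of these passed. Thus 2 of the 10 were called higher and 0 lower past the threshold of 0.05 on adjusted p by the quasi-likelihood test of edgeR, with p-values adjusted by Benjamini-Hochberg over 17394 tested genes. No gene of the 10 passed without OP replicate 1 or 2 or HFCF replicate 1 or 2. Over all tested genes 3.26% were called higher and 3.47% lower. These 10 genes are mostly abundant, and among the 125 tested genes with a mean of at least 1000 CPM 12.8% were called higher and 4.8% lower. The median log2 fold change was 0.36 over the 10 genes, 0.02 over all tested genes and 0.21 over those 125.

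**Figure D1:**
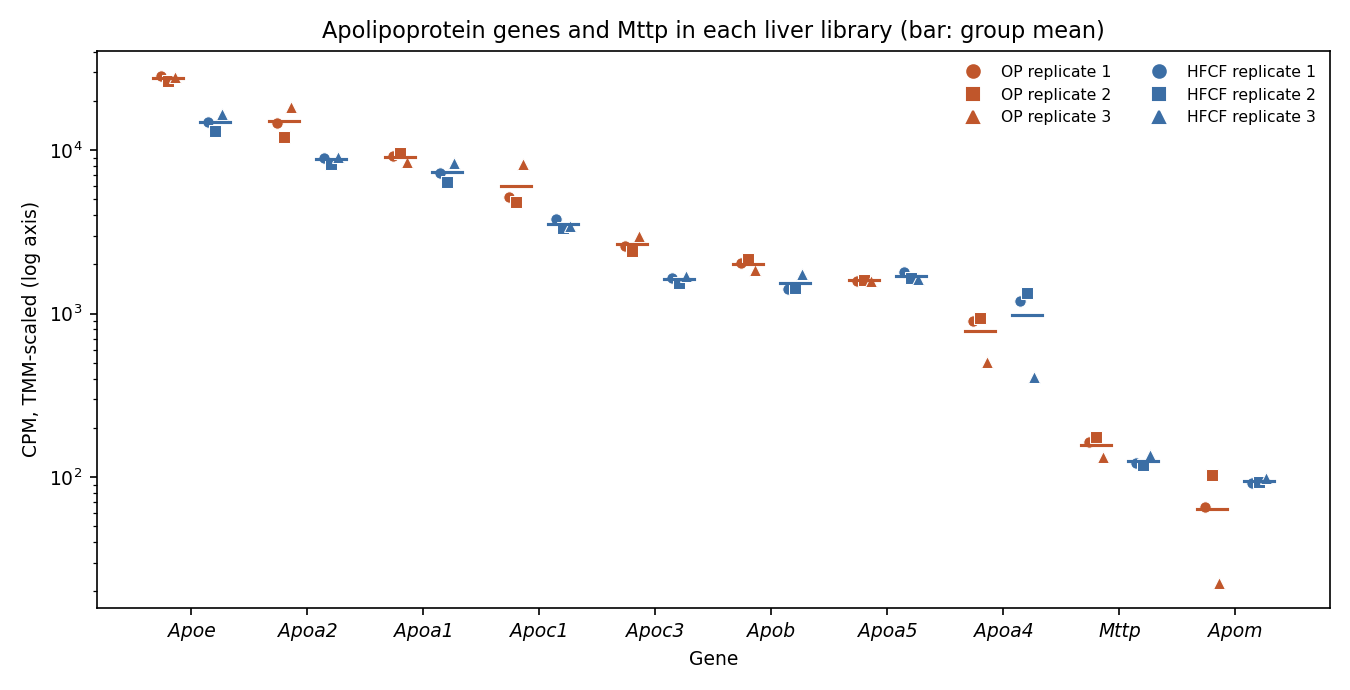
CPM of the 10 genes in each library on a log axis, with OP at the left and HFCF at the right of each gene, symbols for replicates and bars for group means. Apoe, Apoa2, Apoc1, Apoc3, Apob and Apoa1 show OP points above every HFCF point, by little for Apob and Apoa1. Apoa4 and Apom are spread by 1 or 2 low libraries.

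In OP, 6 genes lay wholly above HFCF, namely Apoe, Apoc3, Apoa2, Apoc1, Apob and Apoa1, and 1, Apoa5, lay wholly below. Of all tested genes, 31.2% did not overlap between the groups, 15.8% with OP above and 15.4% with OP below. Among the 125 abundant genes the share that did not overlap was 49.6%, with 36.8% above and 12.8% below. All 7 genes that did not overlap are among those 125 abundant genes.

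Apoe (ENSMUSG00000002985) encodes the ligand by which remnant particles are taken up by hepatocytes, and was the third most abundant tested gene. It had 28376, 26531 and 27833 CPM in the OP livers and 14826, 13174 and 16746 CPM in the HFCF livers. The lowest OP library was far above the highest HFCF library, and the OP libraries lay close together, with a coefficient of variation of 3.44% against 12.0% in HFCF. The log2 fold change was 0.89 ± 0.21 (SE, n = 3 each; adjusted p = 0.0447 in the edgeR quasi-likelihood test). It missed the threshold in the same test without OP replicate 1 (adjusted p = 0.114), OP replicate 2 (0.102), HFCF replicate 1 (0.186) or HFCF replicate 2 (0.211). The log2 fold change over the 6 libraries left out ran from 0.77 to 0.98.

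Macrophages also make Apoe, so their markers were set beside it. The summed level of 14 macrophage genes, Adgre1, Clec4f and Cd68 among them, ran from 259 to 424 CPM in OP and from 386 to 470.1 CPM in HFCF. None of the 14 was called in either direction, 10 lay below 0 on the log2 scale, and none was at 0 counts in every library. Clec4f and Cd5l, markers of Kupffer cells, made up much of the sum, at 89.4 and 48.7 CPM in OP and 137 and 87.3 CPM in HFCF, while C1qa, Lyz2, Gpnmb and C1qc lay above 0. The part of macrophages in the level of Apoe was not tested.

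Apoc3 (ENSMUSG00000032081) encodes an inhibitor of lipoprotein lipase and of remnant clearance. It had 2599.6, 2423 and 2963 CPM in the OP livers and 1647, 1538 and 1702 CPM in the HFCF livers. The groups were well separated, with OP replicate 3 highest. The log2 fold change was 0.71 ± 0.16 (SE, n = 3 each; adjusted p = 0.039 in the edgeR quasi-likelihood test), and 0.63 to 0.77 over the 6 libraries left out. As for Apoe, the call was lost in that test without OP replicate 1 (adjusted p = 0.106), OP replicate 2 (0.0744), HFCF replicate 1 (0.169) or HFCF replicate 2 (0.216).

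Apoc1 encodes a small protein that activates the cholesterol-esterifying enzyme of HDL and hinders remnant uptake. It stood at 5138, 4805 and 8173 CPM in the OP livers and 3769.9, 3341 and 3441 CPM in the HFCF livers. OP replicate 3 was well above the other two, so the OP mean of 6039 CPM had an SD of 1856 CPM. Its log2 fold change of 0.78 ± 0.24 did not pass (adjusted p = 0.0859 in the edgeR quasi-likelihood test), and it was 0.50 without OP replicate 3.

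Apoa2, an HDL protein, had 14656, 12112 and 18475 CPM in the OP livers and 9011, 8235 and 9114 CPM in the HFCF livers. Here too OP replicate 3 was the highest library and the groups did not overlap. Its log2 fold change of 0.78 ± 0.22 had an adjusted p = 0.0723 in the edgeR quasi-likelihood test. The gene passed with DESeq2 (adjusted p = 0.000934) and limma-voom (adjusted p = 0.0441), and its adjusted p spanned 0.000934 to 0.282 over the alternatives run.

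Apoa1 encodes the main structural protein of HDL. It was at 9164, 9626 and 8471 CPM in the OP livers and 7210.04, 6398 and 8330.4 CPM in the HFCF livers. The lowest OP library was only slightly above the highest HFCF library. This gave a log2 fold change of 0.31 ± 0.19 (adjusted p = 0.358 in the edgeR quasi-likelihood test).

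Apom encodes a lipocalin that carries sphingosine-1-phosphate on HDL. It had 65.6, 103 and 22.7 CPM in the OP livers and 91.7, 93.0 and 98.8 CPM in the HFCF livers. The HFCF libraries were nearly level, while the highest OP library held 4.56 times the lowest. Its log2 fold change of -0.56 ± 0.43 did not pass (adjusted p = 0.466 in the edgeR quasi-likelihood test), and it was -0.16 without OP replicate 3, the low library.

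Apob encodes the structural protein of VLDL and LDL. It had 2053, 2154 and 1859 CPM in the OP livers and 1405, 1445 and 1754 CPM in the HFCF livers. The groups did not overlap, though OP replicate 3 and HFCF replicate 3 came near each other. OP minus HFCF was 0.40 ± 0.17 on the log2 scale, with an adjusted p = 0.18 in the edgeR quasi-likelihood test.

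Mttp, whose product hands triglyceride to nascent apolipoprotein B, had 163, 176 and 133 CPM in the OP livers and 122, 119 and 137 CPM in the HFCF livers. OP replicate 3 lay below HFCF replicate 3, so the groups overlapped. The log2 fold change was 0.32 ± 0.15 (adjusted p = 0.229 in the edgeR quasi-likelihood test). The count ratio of Apob over Mttp was 12.6, 12.2 and 13.98 in OP and 11.5, 12.2 and 12.8 in HFCF, so these partners of VLDL assembly lay in nearly the same proportion in both groups. Mttp shares 457 exon bases with Trmt10a on the opposite strand, which had 270 to 439 counts in OP and 257 to 277 in HFCF, against Mttp counts of 6386 to 11196 in OP and 5709 to 8305 in HFCF.

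Apoa5 encodes a scarce plasma protein that promotes lipolysis of triglyceride-rich particles. It had 1591, 1614 and 1592 CPM in the OP livers and 1789.6, 1642 and 1639 CPM in the HFCF livers. The OP libraries were almost identical, with a coefficient of variation of 0.816%, and lay just under HFCF. On the log2 scale the difference was -0.08 ± 0.15 (adjusted p = 0.780 in the edgeR quasi-likelihood test).

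Apoa4 encodes an apolipoprotein of chylomicrons and HDL that liver makes variably. It had 904, 943 and 507 CPM in the OP livers and 1186, 1335 and 408 CPM in the HFCF livers. Replicate 3 was the low library in both groups, and the highest HFCF library held 3.27 times the lowest. The log2 fold change was -0.32 ± 0.42 (adjusted p = 0.688 in the edgeR quasi-likelihood test), and it ran from -0.68 without HFCF replicate 3 to -0.05 without HFCF replicate 2. The predicted gene Gm47528 overlaps 634 of its 1815 exon bases on the opposite strand, with 64 to 123 counts in OP and 53 to 187 in HFCF, so a small part of these reads is uncertain. Gut genes were set beside Apoa4. Of 8 further enterocyte markers, 6 (Lct, Sis, Alpi, Cdx1, Cdx2 and Rbp2) were at 0 in every library. Vil1, which encodes the microvillus protein villin, had at most 0.312 CPM in OP and 0.456 CPM in HFCF and did not pass. Fabp2, an intestinal fatty acid binding protein, rose by 0.76 (adjusted p = 0.0176 in the edgeR quasi-likelihood test), to 172 ± 14.1 CPM in OP, against 102 ± 6.32 CPM in HFCF (SD, n = 3 each). It lost that call without OP replicate 1, HFCF replicate 1 or HFCF replicate 2.

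**Figure D2:**
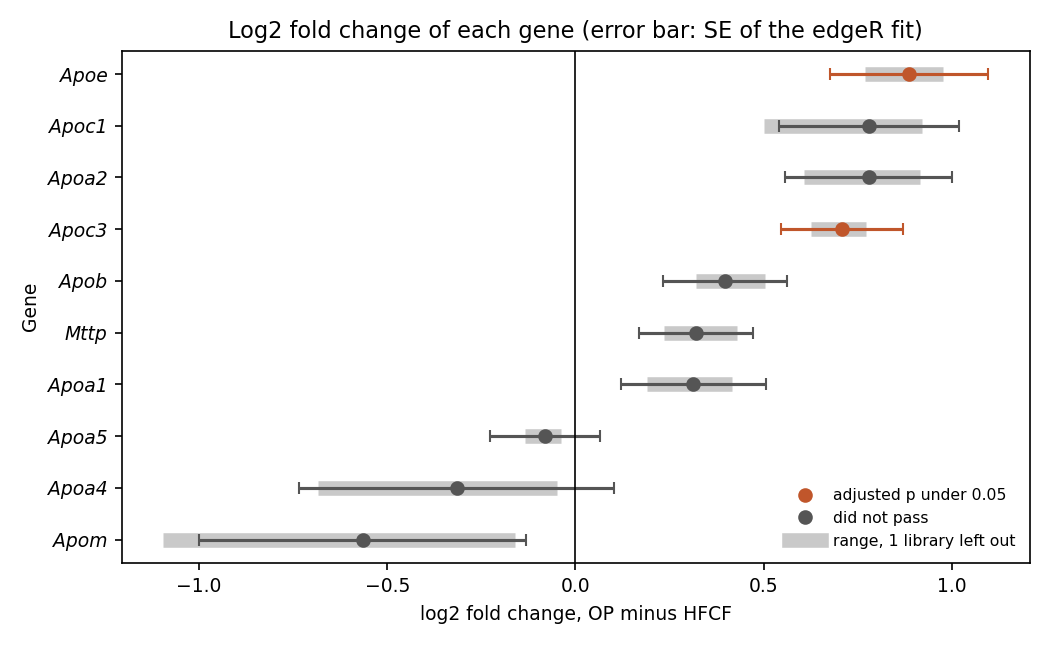
Log2 fold change (OP minus HFCF) of the 10 genes, with points for the estimate, error bars for its SE and grey bands for the range when 1 library is left out. Apoe (0.89) and Apoc3 (0.71) passed, and the bands of Apom (-1.09 to -0.16) and Apoa4 (-0.68 to -0.05) are the widest.

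The genes were also set beside each other as CPM per kilobase of their principal transcript. Apoa2 was highest at 29114 ± 6183 in OP and 16963 ± 928 in HFCF (SD, n = 3 each), followed by Apoe at 19588 ± 673 in OP and 10593 ± 1269.6 in HFCF. Next came Apoc1, Apoa1 and Apoc3, at 11351, 8779.7 and 5061 in OP and 6612, 7066 and 3097 in HFCF. Apoc1 and Apoa1 overlapped in both groups, and their order differed between OP and HFCF. Then followed Apoa5, at 636 in OP and 672 in HFCF, and Apoa4, at 432 in OP and 538 in HFCF. These overlapped in HFCF only. Apob was at 145 in OP and 110.1 in HFCF on this scale, because its transcript is 13934 bases long, against 518 for Apoa2. Apom (63.0 in OP and 93.3 in HFCF) and Mttp (39.7 in OP and 31.8 in HFCF) were the lowest, with overlapping ranges in OP. With all exons of a gene as its length, the order of the genes in OP was the same.

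Shares within a library are free of any scaling factor. The 10 genes together took 6.62%, 6.21% and 6.64% of all counts in OP and 3.84%, 3.86% and 4.47% in HFCF. With mitochondrially encoded genes left out of the total, the shares were 7.18%, 6.64% and 7.82% in OP and 4.95%, 4.77% and 5.21% in HFCF, and the groups again did not overlap. Apoe made up 43.9%, 43.9% and 39.7% of the counts of the 10 genes in OP and 36.1%, 35.3% and 38.6% in HFCF. Apoc3 held nearly the same part of them throughout, 4.01% to 4.23% in OP and 3.93% to 4.12% in HFCF. Apoa5 took 2.27% to 2.67% in OP and 3.78% to 4.40% in HFCF, and Apoa1 12.1% to 15.9% in OP and 17.1% to 19.2% in HFCF. Measured per Alb count, Apoe overlapped between the groups, at 0.565, 0.602 and 0.963 in OP and 0.934, 0.811 and 0.508 in HFCF. Alb itself varied widely, at 50265, 44088 and 28908 CPM in OP and 15870.2, 16246 and 32978 CPM in HFCF.

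Several of these genes are neighbours. Apoa1, Apoc3, Apoa4 and Apoa5 form a cluster on chromosome 9, and Apoe and Apoc1 lie on chromosome 7 beside Apoc4 and Apoc2, which encode further C apolipoproteins. Neighbours did not lie in fixed proportion. The count ratio of Apoc3 over Apoa5 was 1.63, 1.502 and 1.86 in OP and 0.920, 0.937 and 1.04 in HFCF, with no overlap. That of Apoc3 over Apoa1 was 0.284, 0.252 and 0.350 in OP and 0.228, 0.240 and 0.204 in HFCF, also apart. Apoc3 over Apoa4 overlapped, at 2.88, 2.57 and 5.85 in OP and 1.39, 1.15 and 4.17 in HFCF. In the other cluster Apoc1 over Apoc4 was 4.43, 4.55 and 4.83 in OP and 2.96, 2.99 and 3.17 in HFCF, a tight and separate pair of ranges. Apoe over Apoc1 was 5.52, 5.52 and 3.41 in OP and 3.93, 3.94 and 4.87 in HFCF, where replicate 3 turned the order round. Apoc4 had 1303 ± 341 CPM in OP and 1158 ± 99.8 CPM in HFCF, and Apoc2, the activator of lipoprotein lipase, had 189 ± 48.6 CPM in OP and 146 ± 30.2 CPM in HFCF (SD, n = 3 each). Neither passed the test (adjusted p = 0.656 and 0.342 in the edgeR quasi-likelihood test). These ratios are descriptions, with no test. The gap for Apoc3 over Apoa5 follows from Apoc3 lying wholly above HFCF in OP and Apoa5 wholly below it.

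**Figure D3:**
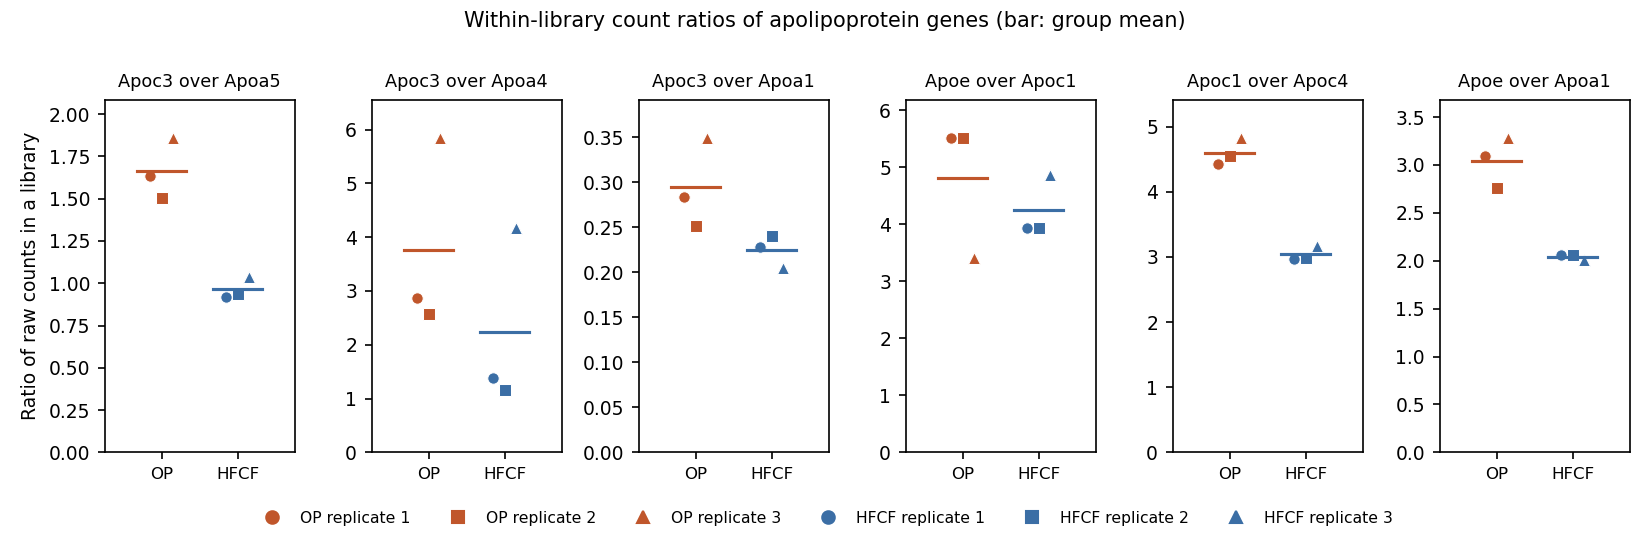
Ratio of raw counts between pairs of genes in each library, on axes from 0, with OP at the left and HFCF at the right and bars for group means. Apoc3 over Apoa5, Apoc1 over Apoc4 and Apoe over Apoa1 (2.76 to 3.29 in OP, 2.01 to 2.06 in HFCF) separate the groups, and Apoe over Apoc1 does not.

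The promoters of Apoe, Apoa2 and Apoa5 are shown so that genes with large and small differences can be compared by their letters. RefSeq start sites on build GRCm38.p6 were at hand for 8 of the 10 genes and not for Apoc1 and Apoc3. The windows are the 150 bases before the start of Apoe (called higher), of Apoa2 (higher in all OP libraries, not called) and of Apoa5 (the smallest difference of the 10). They lie at chr7:19699189-19699338 on the minus strand, chr1:171224904-171225053 on the plus strand and chr9:46268458-46268607 on the plus strand. Each is written 5′ to 3′ along its gene, and capitals mark matches to the motifs searched.
Apoe: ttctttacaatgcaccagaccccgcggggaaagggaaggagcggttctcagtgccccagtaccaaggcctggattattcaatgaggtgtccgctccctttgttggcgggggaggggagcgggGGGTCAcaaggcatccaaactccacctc
Apoa2: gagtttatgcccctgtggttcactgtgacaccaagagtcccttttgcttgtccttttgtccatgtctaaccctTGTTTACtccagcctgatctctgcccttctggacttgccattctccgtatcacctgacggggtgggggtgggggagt
Apoa5: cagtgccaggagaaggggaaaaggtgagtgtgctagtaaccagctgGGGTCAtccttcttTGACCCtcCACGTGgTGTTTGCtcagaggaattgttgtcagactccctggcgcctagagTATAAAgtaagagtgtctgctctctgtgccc

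The motifs searched on both strands were the nuclear receptor hexamers GGGTCA and AGGTCA, the forkhead core TGTTTNC, the E-box CACGTG and the TATA letters TATAAA, and no match overlapped another. GGGTCA was found at -28 of Apoe and at -104 and, on the other strand, -90 of Apoa5, counted from the start, and it is held by 7.2% of the 32851 windows of this length in the table. TGTTTNC was found at -77 of Apoa2 and -75 of Apoa5 and is held by 10.3% of windows. CACGTG at -82 and TATAAA at -31 were found in Apoa5 alone of the 3 (4.3% and 7.57% of windows), and AGGTCA (8.58%) in none. Apoa5 thus held the most of these letters, and a match is a description, not a binding site.

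Other genes of lipoprotein metabolism were counted in 8 lists of 142 genes in all, of which 139 were tested. Of those, 15 were called higher and 5 lower, or 14.4%, against 6.73% called in either direction over all tested genes. By direction, 3.26% of all tested genes were called higher and 3.47% lower, and 12.8% and 4.8% of the 125 abundant genes. These shares are the background for the counts of each list below, and the lists were matched to neither set in level. The lists were also chosen with earlier results of these data known, so the 14.4% is a description and not a test. Medians were above 0 in 7 of the lists, and below 0 for receptors and uptake of remnants and LDL (-0.09), where 9 of 15 genes lay below 0.

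**Figure D4:**
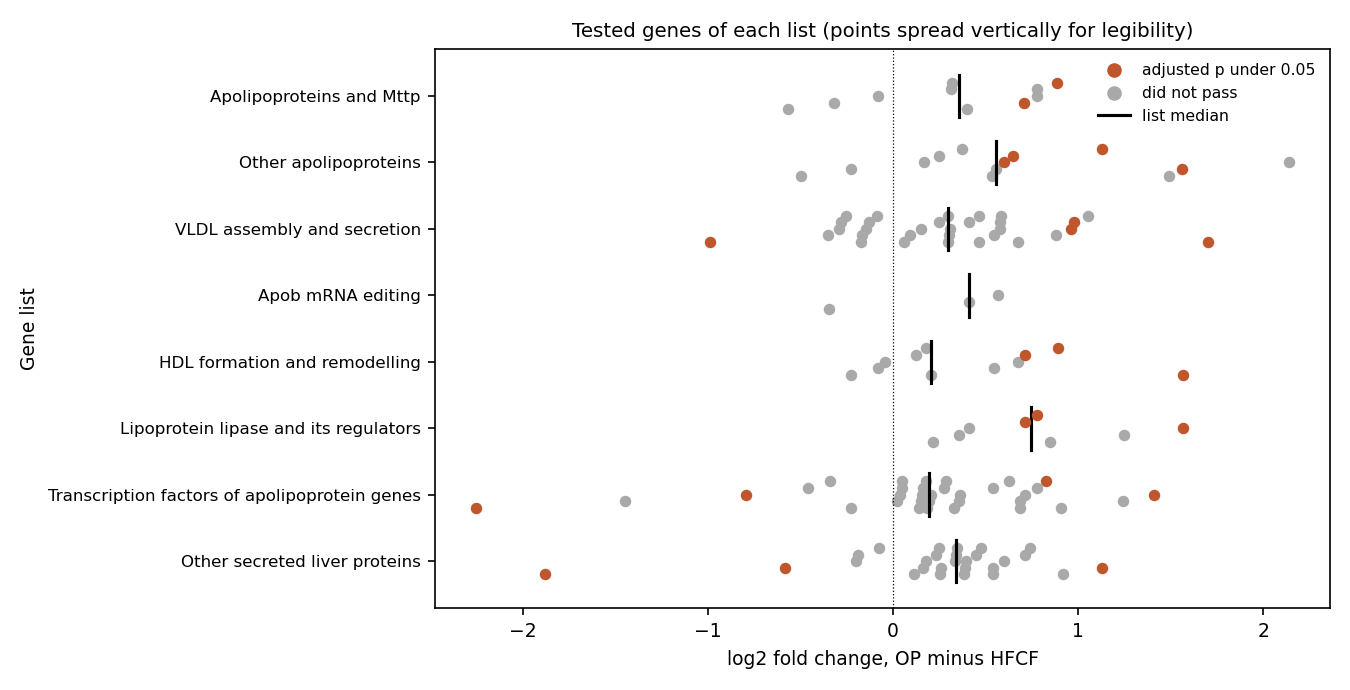
Log2 fold change (OP minus HFCF) of each tested gene of the 10 genes and 7 lists, with coloured points for an adjusted p under 0.05 and a black bar for the list median. The list of lipoprotein lipase and its regulators lies wholly above 0, and the list of Apob mRNA editing has no called gene. The list of receptors is left out, and its median is below 0 (-0.09).

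Of the 20 called genes, 15 lost their call without OP replicate 1, 7 without OP replicate 2, 6 without OP replicate 3, 17 without HFCF replicate 1, 18 without HFCF replicate 2 and 6 without HFCF replicate 3.

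In VLDL assembly and secretion, 3 of 31 tested genes rose, 1 fell and the median log2 fold change was 0.30, beside 0.40 for Apob and 0.32 for Mttp. Ces1d, a carboxylesterase that mobilises stored triglyceride for VLDL, rose to 1320 ± 254 CPM in OP, against 406 ± 51.1 CPM in HFCF (SD, n = 3 each). Sar1b, the GTPase of the COPII coat that buds lipoprotein cargo, had 172, 169 and 145 CPM in OP and 71.1, 80.0 and 95.5 CPM in HFCF. Dgat2, which makes triglyceride, rose by 0.96 on the log2 scale, and Klhl12, a ubiquitin ligase adaptor that enlarges COPII vesicles, fell by 0.99. Adjusted p ran from 0.0046 for Ces1d to 0.0178 for Dgat2 in the edgeR quasi-likelihood test. P4hb encodes the protein disulfide isomerase that is the partner subunit of the transfer protein, and had 808 ± 41.7 CPM in OP and 654 ± 21.0 CPM in HFCF (SD, n = 3 each; adjusted p = 0.205 in the same edgeR test). None of the 3 genes of Apob mRNA editing, by which rodent liver makes the short form of the protein, was called, and counts per gene do not show the edited base.

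Of 11 genes of HDL formation and remodelling 3 rose and 0 fell, with a median of 0.21, beside 0.31 for Apoa1 and 0.78 for Apoa2. Pon1, the paraoxonase of HDL, had 1099, 959.5 and 903.5 CPM in OP and 507, 456 and 630.5 CPM in HFCF. Lipc, the hepatic lipase, and Lipg, the endothelial lipase, rose by 0.71 and 1.57 on the log2 scale. Adjusted p of the 3 ran from 0.0176 to 0.0285 in the edgeR quasi-likelihood test. Both lipases are also among the 8 genes of lipoprotein lipase and its regulators, the process that the product of Apoc3 inhibits, where 3 rose and 0 fell, the third being Lmf1, a lipase maturation factor.

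Among 13 further apolipoproteins 4 rose and 0 fell, with a median of 0.55. They were Saa4 (log2 fold change 1.56), a constitutive serum amyloid A of HDL, Saa2 (1.13), Apol9a (0.65) and Apol9b (0.60), with adjusted p of 0.0114 to 0.041 in the edgeR quasi-likelihood test. Saa2 and Saa1 are close copies, as are Apol9a and Apol9b, so the split of reads between them is uncertain. Saa1 lay at 54.5 CPM in OP and 63.7 CPM in HFCF (log2 fold change -0.23, not called), against 41.2 and 18.8 CPM for Saa2. With 1 library left out, Saa4 was called in 4 of 6 fits, Saa2 and Apol9a in 1 and Apol9b in 0.

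Of 33 transcription factors that act on apolipoprotein genes, 2 rose and 2 fell, with a median of 0.19. Foxo1, a forkhead factor that acts on Apoc3 and Mttp, rose by 0.83, and Pparg, the receptor named in the title of the series, by 1.41. Ppargc1a, a coactivator, fell to 4.96 ± 0.623 CPM in OP, against 23.6 ± 1.86 CPM in HFCF (SD, n = 3 each), and passed with any 1 library left out. Nr1d1, a repressor that acts on Apoc3, fell by 0.79. With 1 library left out, Foxo1 was called in only 2 of 6 fits, Pparg in 1 and Nr1d1 in 0. Adjusted p ran from 0.00193 for Ppargc1a to 0.0488 for Nr1d1 in the edgeR quasi-likelihood test. Hnf4a, a nuclear receptor that drives many apolipoprotein genes in hepatocytes, and Creb3l3, a membrane-bound factor that acts on Apoa4, did not pass (log2 fold changes of 0.35 and 0.19).

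Other secreted liver proteins gave 1 call higher and 2 lower among 27, with a median of 0.34, near the 0.36 of the 10 genes. Ttr rose to 6891 ± 698 CPM in OP, against 3153 ± 569.5 CPM in HFCF (SD, n = 3 each). Serpina1e, 1 of several close copies of the elastase inhibitor gene, fell by 1.88 and Itih3 by 0.58 (adjusted p = 0.00941 and 0.0488 in the edgeR quasi-likelihood test). The copies Serpina1a, Serpina1b, Serpina1c and Serpina1d lay above 0 (log2 fold changes of 0.45, 0.54, 0.74 and 0.34) and did not pass. The split of reads between these copies is uncertain. Alb did not pass (log2 fold change 0.92 ± 0.36; adjusted p = 0.158).

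Hepatocyte markers lay in both directions. The 8 markers summed to 48720 to 78173 CPM in OP and 35774 to 56189 CPM in HFCF, a sum carried by Alb. Of the 8, 5 lay below 0 on the log2 scale (Cps1, Pck1, Tat, Ass1 and Hpd, enzymes of the urea cycle, gluconeogenesis and amino acid breakdown), and the median was -0.47, beside 0.36 for the 10 genes. Ttr was called higher, and Cps1 fell to 674 ± 267 CPM in OP, against 1812 ± 182 CPM in HFCF (SD, n = 3 each; adjusted p = 0.0274 in the edgeR quasi-likelihood test). Cps1 lost its call without OP replicate 2, HFCF replicate 1 or HFCF replicate 2, and Ttr without OP replicate 1, HFCF replicate 1 or HFCF replicate 2. Pck1 and Tat lay wholly lower in OP without passing, with log2 fold changes of -1.53 and -1.50. The part of these shifts in the levels of the apolipoprotein genes was not tested.

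The mitochondrial share was added to the fit as a covariate, though it and the group cannot be told apart fully in 6 libraries. With it, log2 fold changes were 0.83 for Apoc3, 0.80 for Apoe, 1.06 for Apoa2, 1.26 for Apoc1, 0.11 for Apob, 0.09 for Apoa1, -0.01 for Mttp and -2.10 for Apom. None of the 10 passed (adjusted p = 0.0558 for Apoc1, 0.0936 for Apoc3 and 0.135 for Apoe in the edgeR quasi-likelihood test). OP replicate 3 and HFCF replicate 3 had nearly the same share (14.4% and 14.1%). Apoe was at 27833 CPM in that OP library and 16746 CPM in that HFCF library, and Apoc3 at 2963 CPM in OP and 1702 CPM in HFCF. Apoa2 was at 18475 and 9114 CPM, Apoc1 at 8173 and 3441 CPM, and Apoa4 at 507 and 408 CPM (OP, then HFCF). Nearer to each other were Apoa1 at 8471 and 8330 CPM, Apob at 1859 and 1754 CPM, and Mttp at 133 and 137 CPM. As with Mttp, Apoa5 (1592 and 1639 CPM) and Apom (22.7 and 98.8 CPM) lay lower in that OP library. This is 1 library of each group, chosen after values were seen, so the part of the share was not tested. The red cell markers, 4 globin genes and Alas2, summed to 192 to 414 CPM in OP and 941 to 1767 CPM in HFCF, with the 4 globin genes called lower (not without HFCF replicate 1 or 2 and, for 3 of them, OP replicate 1), Alas2 not called and none at 0 in every library. Their part in the results was not tested.

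Over the 6 libraries, the genes of at least 10 CPM whose log2 CPM followed Apoe most closely were Mgat1, an N-glycosylation enzyme (Pearson r = 0.999), Atp6ap1, an accessory subunit of the vacuolar proton pump (0.998), and Cldn3, a claudin of tight junctions (0.997). For Apoc3 they were Mcrip2 (0.998), Glmp, a lysosomal membrane protein (0.996), and Tpcn1, an endolysosomal channel (0.996). These are the closest of 7223 candidate genes over only 6 libraries that fall into 2 groups, so they describe shape and were not tested.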

How the data were processed

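Poly(A) RNA of 6 mouse liver samples was sequenced as paired ends, with dUTP in the second strand, per the labels' protocols. The submitters' processing notes name cutadapt 1.9, FastQC and build GRCm39. Not given in the sources used here are aligner, counter and handling of strand. The deposited values are raw counts, whole numbers for each gene and library. In OP replicate 1 a count of 4 was found in 909 genes, a count of 3 in 482 and a count of 5 in 257, and the other libraries were alike, so several counts may come from 1 read pair.

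Samples were grouped by title. Of 55401 identifiers, 55141 matched a symbol. Genes kept by filterByExpr (17394 of 27893 with any count) were scaled by TMM and tested two-sided for OP minus HFCF with edgeR 4.0.16 (glmQLFit, glmQLFTest) under R 4.3.3; p-values were adjusted by Benjamini-Hochberg across these genes, with a threshold of 0.05. SEs are the fold change over the square root of F. The script was tested on simulated data with 3 libraries per group. It called 88 of 100 genes changed 4-fold, 23 of 100 changed 2-fold and 8 of 17194 unchanged. Most 2-fold changes were thus missed there, so a gene that did not pass may still differ. Transcript lengths and exon overlaps came from GENCODE M21 (GRCm38), whose build differs from the submitters'. Figures were drawn with matplotlib 3.10.9.

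The genes and lists were chosen with earlier results of these data known, so no p is adjusted over a list. Named genes are the 10 genes, up to 4 called genes per list (or the 2 with the smallest p), a short fixed set of partners and the 3 most similar genes for each that passed; not all of them are named. The group of 125 abundant genes, the ratios shown and the pair of replicate 3 libraries were chosen after values were seen. Alternatives were DESeq2 1.42.0, limma-voom (limma 3.58.1), other scalings, filters, dispersions and thresholds, the replicate number as a block, the mitochondrial share as a covariate, mitochondrial genes left out, counts divided by 4 and each library left out. Results of some genes of the receptor list are not reported here.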

Additional observations from a re-analysis of the deposited data

How the results depend on the processing

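Of 180 log2 fold changes of the 10 genes over 18 alternatives, 159 kept direction and side of the threshold. The exceptions were 17 of Apoe and Apoc3 that no longer passed, 3 of Apoa2 and Apoc1 that now passed, and Mttp, which changed sign with the mitochondrial share as a covariate (-0.00873). Apoe passed in only 9 of its 18 alternatives and Apoc3 in only 10 of 18. Of the 10 genes, 4 were called with DESeq2 or a threshold of 0.1, 1 with RLE scaling, and 0 with total counts, no low-count filter, the replicate block, the covariate or a threshold of 0.01; leaving out 1 library gave 0 to 2, with 0 without OP replicate 1 or 2 or HFCF replicate 1 or 2. Apoe with RLE scaling was at adjusted p = 0.0505 in edgeR's quasi-likelihood test, and its adjusted p spanned 9.70e-07 to 0.211 over the alternatives. Of the 567 higher and 603 lower genes of the whole table, counts were 1269 and 1265 with DESeq2, 298 and 400 without a filter, 110 and 97 with the covariate, 72 and 92 at a threshold of 0.01 and 1322 and 1230 at 0.1; with 1 library left out they ran from 34 to 655 higher and from 54 to 655 lower, at 86 and 117 without OP replicate 1, 313 and 348 without OP replicate 2, 52 and 60 without HFCF replicate 1 and 34 and 54 without HFCF replicate 2. Of the genes in the 8 lists, 20 were called, against 43 with DESeq2, 13 without a filter, 6 with the covariate, 4 at 0.01, 37 at 0.1 and 2 to 25 with 1 library left out (5 without OP replicate 1, 3 without HFCF replicate 1, 2 without HFCF replicate 2). Whether shared replicate numbers pair the samples is not settled. Same-numbered deviations correlated at 0.0229, -0.126 and -0.164, and those of different number at -0.152 to 0.248. Deviations from a mean of 3 libraries depend on each other, so these values cannot exclude pairing. With the replicate block 87 genes were higher and 93 lower, 5 in the lists, and Apoe (0.89) and Apoc3 (0.70) no longer passed (adjusted p = 0.155 and 0.153 in the same edgeR test). These 10 genes had at least 1089 counts in every library, so counting depth did not limit them.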
